A study of Mus musculus with 4 samples.

Results

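RNA polymerases I, II and III are the nuclear enzymes that copy DNA into RNA, and the genes that encode their subunits are described here in mouse pachytene spermatocytes treated with an inhibitor of Pol I. The members are the protein-coding genes of the GRCm38.p6 (mm10) annotation whose symbol starts with Polr1, Polr2 or Polr3, together with Twistnb, Cd3eap, Znrd1, Rrn3, Ubtf, Taf1a, Taf1b, Taf1c, Taf1d, Tbp and Ttf1. This rule found 39 of 21887 protein-coding genes, of which 8 encode Pol I subunits, 13 Pol II subunits, 10 Pol III subunits and 8 factors that act with Pol I. The rule itself uses gene symbols and no measured value, but it was chosen with earlier results of these data known.

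Spermatocytes isolated from testis were given BMH-21 at 2.5 µM for 12 h, or DMSO alone (mock), and open chromatin was mapped by ATAC-seq, which uses a transposase to cut accessible DNA. Each group had 2 libraries from about 10000 cells each, amplified with 14 PCR cycles. The submitters call them biological replicates, but the labels do not say whether they came from separate animals, and they name no genotype, strain or age, so p-values measure only the spread between these libraries, which may be technical. The peak lists held 51234 and 55459 peaks in the BMH-21 libraries and 109230 and 117905 peaks in the mock libraries. A gene-end peak, meaning a peak that comes within 1 kb of the start or end position of a gene, was found at 61 and 61.5% of protein-coding genes in BMH-21 libraries and at 70.1 and 70.7% in mock libraries. Of 8 pachytene marker genes, 8 and 7 had a gene-end peak in the BMH-21 libraries and 8 in each mock library. Of 20 markers of other testis and immune cells, 5 and 4 had one in the BMH-21 libraries and 14 in each mock library. The same 14 were held by both mock libraries. Of these, 9 (Dmrt1, Prm1, Prm2, Kitl, Star, Nr5a1, Tyrobp, C1qa and Fcer1g) were mock-only, against 11.5% of the protein-coding genes held by both mock lists. Zbtb16, Kit, Amh and Wt1 had one in all 4 libraries, and Sox9 in all but BMH-21 replicate 2. Defining markers without a gene-end peak in any library were Stra8, Tnp1, Acrv1, Gata4, Cyp17a1 and Ptprc, although Stra8 had a peak at an annotated start in some libraries. Values with lists of equal length, each limited to the 51234 peaks with the smallest deposited p-values, stand beside the results on regions, bodies and summits. The part of other cells in the results was not tested.

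Pol I makes the precursor of ribosomal RNA in the nucleolus, Pol II makes messenger RNA, and Pol III makes transfer RNA and other short RNAs. Each enzyme has its own pair of large subunits that form the active site, and a set of smaller ones: Polr2e, Polr2f, Polr2h, Polr2k and Polr2l serve all 3 enzymes, and Polr1c and Polr1d serve Pol I and Pol III. BMH-21 is known as a DNA intercalator that halts Pol I and triggers breakdown of its largest subunit, the protein made from Polr1a. An ATAC-seq peak shows accessible DNA at a gene and measures neither its RNA nor its protein.

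Every subunit gene of the 3 polymerases kept a gene-end peak after BMH-21. Gene-end peaks were found at 39 and 38 of the 39 members in BMH-21 libraries and at 38 in each mock library, and 38 members (97.4%) had one in all 4 libraries. Over all protein-coding genes this share was 57.9%. All 8 Pol I, all 13 Pol II and all 10 Pol III subunit genes were among the 38, so the change in their share with a peak was 0 for each enzyme, and at this ceiling the measure could not show a difference between enzymes. With lists of equal length the change in that share, BMH-21 minus mock, differed by -3.85 percentage points for Pol I minus Pol II (exact permutation p = 1), -10 for Pol I minus Pol III and 6.15 for Pol III minus Pol II (p = 0.33 each, the smallest possible). The Pol III change came from Polr3gl alone and the Pol II change from Polr2g alone. No member was mock-only, that is, present in the mock libraries and absent from both BMH-21 libraries, against 11.5% of the protein-coding genes held by both mock lists. None was BMH-21-only, against 1.35% of those held by both BMH-21 lists.

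The exception was Ubtf, the gene for a factor that binds ribosomal DNA and keeps it open. The outer end of Ubtf in the gene table had a peak in BMH-21 replicate 1 alone (chr11:102323004-102323416, fold 3.82). Its annotated transcript starts lie inside the gene, away from that end. A region of overlapping peaks over several of them (chr11:102316535-102319197) was held by all 4 libraries. Folds there were 5.87 and 5.68 in BMH-21 libraries and 3.83 and 3.7 in mock libraries. Its peaks spanned 849 and 1149 bp in BMH-21 libraries and 2624 and 2642 bp in mock libraries. The fold is the authors' value for a peak, its enrichment over the local background of the same library, and is used here to describe and rank peaks within a list and not to compare libraries.

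Annotated starts were therefore examined in their own right for the 33 members that the RefSeq promoter table lists. All 33 had a peak within 1 kb of a start in all 4 libraries, where 59.4% of 17492 protein-coding genes did. Mock-only starts made up 9.93% of the protein-coding genes with a start peak in both mock libraries, and BMH-21-only starts 1.37% of those with one in both BMH-21 libraries. No member was in either class. The other 6 members, among them Polr2g and Polr3a, are described by their gene ends.

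Promoters of 6 members are shown because the results below turn on their starts: Polr1a, Polr2a and Polr3b for a large subunit of each enzyme, and Polr3g, Polr3gl and Taf1c for starts at which the libraries differed, the last 4 of these 6 being chosen after their values were seen. Each runs 5′ to 3′ on the strand of the gene, over 250 bases before the annotated start and 30 bases from it, as given by RefSeq on GRCm38.p6. Capitals mark exact matches to 3 short motifs. The first is spelled TATAAA and is known as the TATA box. The next is the CCAAT box, which reads ATTGG where it lies on the opposite strand of the gene. The last is the core bound by ETS factors, spelled CCGGAAG, and its match on the opposite strand of the gene reads CTTCCGG. Polr1a lies at chr6:71908803-71909082 (plus strand), Polr2a at chr11:69758604-69758883 (minus), Polr3b at chr10:84622048-84622327 (plus), Polr3g at chr13:81710984-81711263 (minus), Polr3gl at chr3:96594152-96594431 (minus) and Taf1c at chr8:119605177-119605456 (minus).
Polr1a: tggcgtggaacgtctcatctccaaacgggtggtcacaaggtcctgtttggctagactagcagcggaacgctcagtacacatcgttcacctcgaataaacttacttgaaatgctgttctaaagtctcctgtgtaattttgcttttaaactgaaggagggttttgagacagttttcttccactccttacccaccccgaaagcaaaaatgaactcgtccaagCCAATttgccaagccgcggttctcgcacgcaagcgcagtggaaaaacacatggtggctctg
Polr2a: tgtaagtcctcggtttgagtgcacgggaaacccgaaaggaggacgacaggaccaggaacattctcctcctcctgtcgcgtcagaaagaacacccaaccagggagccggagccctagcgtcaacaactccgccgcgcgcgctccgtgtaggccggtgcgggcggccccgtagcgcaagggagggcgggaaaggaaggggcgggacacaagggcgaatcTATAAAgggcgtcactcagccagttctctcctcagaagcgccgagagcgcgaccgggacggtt
Polr3b: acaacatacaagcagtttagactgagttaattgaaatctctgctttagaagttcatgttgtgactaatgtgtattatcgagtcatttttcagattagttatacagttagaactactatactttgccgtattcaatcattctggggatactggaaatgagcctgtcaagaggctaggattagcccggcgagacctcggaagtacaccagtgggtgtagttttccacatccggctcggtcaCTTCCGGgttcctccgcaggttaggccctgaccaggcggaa
Polr3g: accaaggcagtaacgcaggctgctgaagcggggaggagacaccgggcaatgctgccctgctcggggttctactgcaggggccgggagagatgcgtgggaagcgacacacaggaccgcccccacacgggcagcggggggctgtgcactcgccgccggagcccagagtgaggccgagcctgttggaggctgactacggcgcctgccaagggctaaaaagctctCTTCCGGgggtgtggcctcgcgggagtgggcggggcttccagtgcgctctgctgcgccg
Polr3gl: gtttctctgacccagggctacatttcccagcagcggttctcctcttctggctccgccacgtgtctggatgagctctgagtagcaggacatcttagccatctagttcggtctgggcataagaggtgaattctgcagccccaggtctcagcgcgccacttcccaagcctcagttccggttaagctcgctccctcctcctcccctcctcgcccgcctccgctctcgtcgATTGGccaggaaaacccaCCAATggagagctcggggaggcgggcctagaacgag
Taf1c: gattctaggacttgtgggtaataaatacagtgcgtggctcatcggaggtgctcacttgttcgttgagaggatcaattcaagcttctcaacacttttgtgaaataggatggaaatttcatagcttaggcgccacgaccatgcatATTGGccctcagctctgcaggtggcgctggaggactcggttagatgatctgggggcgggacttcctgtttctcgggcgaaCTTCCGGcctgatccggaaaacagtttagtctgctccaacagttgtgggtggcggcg

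The TATA box of Polr2a spans bases -33 to -28 from the annotated start. The ETS core spans bases -11 to -5 at Polr3b, -29 to -23 at Polr3g and -27 to -21 at Taf1c. Polr1a has a CCAAT box at bases -31 to -27, and Polr3gl has 1 on each strand within 24 bases upstream of its start.

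Member promoters were rich in CpG. The ratio of observed to expected CpG had a median of 0.791 over the 33 members and 0.563 over 17492 protein-coding promoters, and it exceeded 0.6 in 29 members (87.9%) and in 47.3% of all promoters. Pol II subunit genes had the highest group median, 0.957, with a range of 0.846 to 1.05, followed by Pol I subunits at 0.712, Pol III subunits at 0.708 and Pol I factors at 0.700. The ETS core was found in 12 of 33 member promoters (36.4%), and in 11.4% of all promoters. It was found in 5 of the 8 Pol I factors (Rrn3, Taf1a, Taf1b, Taf1c and Ttf1), in 2 of 8 Pol I subunits (Cd3eap and Polr1c), in 3 of 10 Pol II subunits (Polr2c, Polr2f and Polr2j) and in 2 of 7 Pol III subunits (Polr3b and Polr3g). The TATA box was found in Polr2a and Polr2c (6.06%, against 13% of all promoters). The CCAAT box was found in 11 members (33.3%, against 38.2%), the NRF1 motif CATGCGC in Polr2b, Polr2i and Polr2j (9.09%, against 4.64%), and TGACGT, part of the cAMP response element, in Polr1c and Znrd1 (6.06%, against 8.46%). The YY1 motif AAGATGG was in 5.43% of all promoters and in no member. Both strands were searched. None of these motifs contains another, and a match describes sequence, not binding.

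Many of these starts lie close to another gene. At 14 of the 33 members (42.4%) another protein-coding gene has an end within 1 kb of the annotated start, which holds for 14.1% of all protein-coding genes with a start. These were 5 of 8 Pol I subunits, 5 of 10 Pol II subunits, 3 of 7 Pol III subunits and 1 of 8 Pol I factors. The neighbour was Ptcd3 at Polr1a, Yipf3 at Polr1c, Noa1 at Polr2b, Rnf115 at Polr3c and Mblac2 at Polr3g. A peak at such a start cannot be assigned to either gene alone. The Polr3e start peak also lay within 1 kb of a leucine tRNA gene, n-TLaag4, which is itself a target of Pol III.

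The strongest start peak of most members ranked in the upper part of its list. The median percentile of its fold over all member starts was 80 and 77.2 in BMH-21 libraries and 91.7 and 93.8 in mock libraries, where 100 is the strongest peak of that list. The median fold was 6.81 and 6.60 in BMH-21 libraries and 8.29 and 9.09 in mock libraries for the members, and 6.85 and 7.04 in BMH-21 libraries and 7.34 and 7.45 in mock libraries for all genes with a start peak. By enzyme, the median was 5.99 and 5.95 in BMH-21 libraries and 9.08 and 9.49 in mock libraries for Pol I subunits. Pol II subunits had medians of 5.62 and 5.89 in BMH-21 libraries and 6.08 and 6.40 in mock libraries. Pol III subunits had medians of 8.39 and 8.62 in BMH-21 libraries and 9.08 and 10.1 in mock libraries. The Pol II and Pol III medians cover the 10 of 13 and 7 of 10 members with an annotated start. Among members with a start, the Pol III median was the highest of the 3 enzymes in each BMH-21 list and in mock replicate 2. In mock replicate 1 it was level with that of Pol I subunits. Every Pol III member left out had gene-end folds below the Pol III medians in both mock libraries. The mock ranking therefore holds only for members with a start. Pol I factors had medians of 7.74 and 7.74 in BMH-21 libraries and 9.10 and 9.37 in mock libraries.

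**Figure D1:**
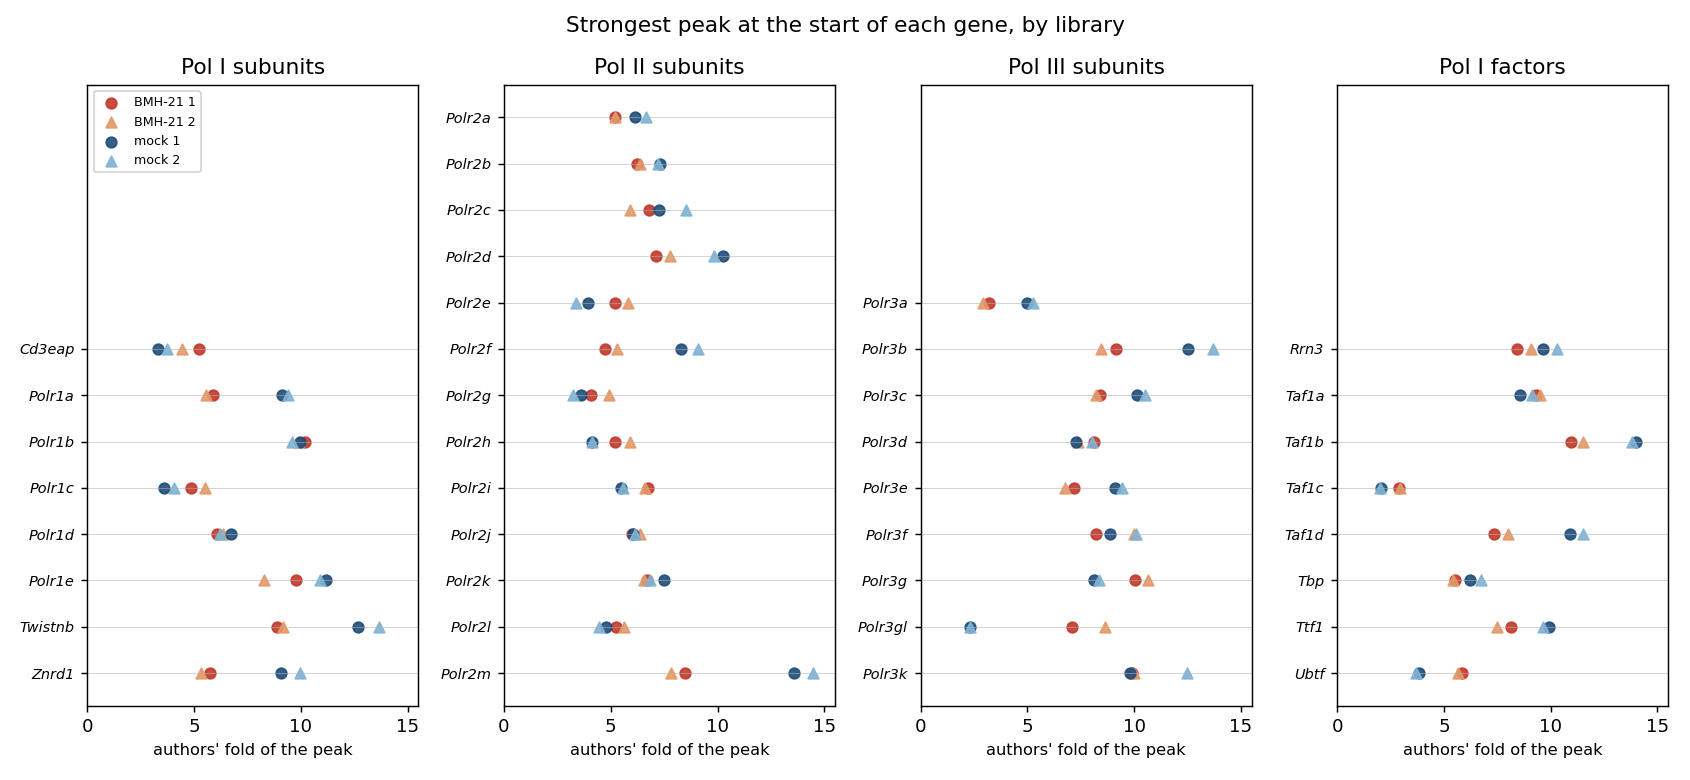
The authors' fold of the strongest peak at the start (at a gene end for members without an annotated start) of 38 of the 39 members, in a panel for each group of genes, with 1 symbol for each library. Taf1c is lowest at 2.02 to 2.94, and Polr2m is highest in mock replicate 2 at 14.4. Folds are not normalised between libraries, so positions compare genes within a library.

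Among the Pol I subunits, the large pair Polr1a and Polr1b form the catalytic core. Polr1a had start peaks at folds of 5.89 and 5.53 in BMH-21 libraries and 9.09 and 9.40 in mock libraries. Polr1b had 10.2 and 9.89 in BMH-21 libraries and 9.97 and 9.57 in mock libraries, so it ranked above Polr1a in every list. Twistnb, a subunit of the stalk that binds Rrn3, had the highest mean percentile over the 4 lists in the group, although Polr1b was above it in both BMH-21 lists. Its folds were 8.90 and 9.18 in BMH-21 libraries and 12.6 and 13.7 in mock libraries. Cd3eap, whose product joins with that of Polr1e in a subcomplex that aids initiation and elongation, had the lowest mean percentile, with folds of 5.22 and 4.42 in BMH-21 libraries and 3.31 and 3.74 in mock libraries.

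Among the Pol II subunits, Polr2a carries the C-terminal repeat domain that is phosphorylated during transcription, and Polr2b is its large partner. Polr2a start peaks had folds of 5.21 and 5.20 in BMH-21 libraries and 6.13 and 6.67 in mock libraries. Polr2b had 6.21 and 6.37 in BMH-21 libraries and 7.28 and 7.22 in mock libraries, again above its partner in each list. Polr2m, a protein that associates with part of the Pol II in the cell, had the highest mean percentile in the group, with folds of 8.47 and 7.81 in BMH-21 libraries and 13.6 and 14.4 in mock libraries. Polr2g, part of the stalk, had the lowest, with gene-end folds of 4.06 and 4.94 in BMH-21 libraries and 3.60 and 3.22 in mock libraries.

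Among the Pol III subunits, Polr3a and Polr3b are the catalytic pair. The gene end of Polr3a had the lowest mean percentile of the group, although Polr3gl was below it in both mock lists. Its folds were 3.20 and 2.94 in BMH-21 libraries and 5.00 and 5.25 in mock libraries. Polr3b had 9.13 and 8.45 in BMH-21 libraries and 12.5 and 13.7 in mock libraries, so the large subunits of this enzyme stood far apart in every list. Polr3k, which aids RNA cleavage and termination, had the highest mean percentile over the 4 lists, although Polr3g was above it in both BMH-21 lists. At its start the folds were 9.89 and 10.0 in BMH-21 libraries and 9.78 and 12.5 in mock libraries. At its other end (chr2:181870959-181871592) they were 3.30 and 5.23 in BMH-21 libraries and 15.8 and 14.0 in mock libraries, so the strongest Polr3k peak was at the start in BMH-21 lists and at the other end in mock lists.

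Polr3g and Polr3gl encode alternative versions of one Pol III subunit that sits in the initiation subcomplex with Polr3c and Polr3f. Both starts had a peak in all 4 libraries. Polr3g start peaks had folds of 10.1 and 10.6 in BMH-21 libraries and 8.11 and 8.34 in mock libraries, above the 90th percentile of every list. Polr3gl start peaks had 7.08 and 8.62 in BMH-21 libraries, at the 81.8 and 89.6 percentiles, and 2.32 and 2.33 in mock libraries, at the 3.12 and 2.84 percentiles. They were 654 and 926 bp wide in BMH-21 libraries and 241 and 216 bp wide in mock libraries. With each list limited to the 51234 peaks with the smallest deposited p-values, a cut that does not rank by fold, the Polr3gl start was in both BMH-21 lists and in neither mock list.

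Among the factors of Pol I, Rrn3 links the polymerase to its promoter, and Taf1a, Taf1b, Taf1c and Taf1d form with Tbp the complex SL1 that selects it. Rrn3 start peaks had folds of 8.44 and 9.07 in BMH-21 libraries and 9.62 and 10.3 in mock libraries. Tbp, the TATA-binding protein used by all 3 polymerases, had 5.52 and 5.43 in BMH-21 libraries and 6.22 and 6.76 in mock libraries. Ttf1, which binds the terminators of ribosomal DNA, had 8.13 and 7.49 in BMH-21 libraries and 9.92 and 9.63 in mock libraries. Taf1b had the highest mean percentile, with 11.0 and 11.5 in BMH-21 libraries and 14.0 and 13.8 in mock libraries.

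Taf1c had the lowest mean percentile of all members, and its strongest peaks lay at different places in the groups. A region over its outer start (chr8:119604965-119605352) was in both BMH-21 libraries, with folds of 2.92 and 2.94, and in neither mock library. It lies over the ETS core and the CCAAT box printed for Taf1c. A broad region further into the gene (chr8:119598604-119601750), within 1 kb of its other annotated start, was in both mock libraries, with folds of 2.03 and 2.02 and widths of 3109 and 3147 bp, and in neither BMH-21 library. It also comes within 1 kb of an end of Dnaaf1. Another region (chr8:119602870-119603271) lay between them and was held by BMH-21 replicate 2 and mock replicate 1, with folds of 1.92 and 1.98. With a gene-end window of 500 bp, with the summit or with at least 50% of the peak required in the window, Taf1c was BMH-21-only at its gene end. It was the only member in that class under each of these 3 settings.

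Regions away from the starts were fewer in both BMH-21 libraries than in both mock libraries. Peaks of the 4 lists that overlapped by at least 1 bp were merged into regions. For the 33 members with an annotated start, regions were placed at a start, at the other gene end or in the gene body. For the members without one, only gene body regions were placed, so body counts cover all 39 members. Gene-end regions of those members and the outer-end region of Ubtf are in none of the 3 places. At annotated starts the libraries held 34 and 37 regions with BMH-21 and 37 and 36 in mock, and 2 of 36 regions in both mock libraries (5.56%) were mock-only, against 16.1% over all protein-coding genes. At the other end they held 2 and 4 regions with BMH-21 and 9 and 14 in mock, and 7 of 9 (77.8%) were mock-only, against 60.4%. In gene bodies they held 10 and 11 regions with BMH-21 and 44 and 48 in mock, and 28 of 35 (80%) were mock-only, against 72.3%. The mock-only shares at other ends and in bodies stood near those of protein-coding genes in general. Regions in all 4 libraries were 33 of 39 at starts (69.6% over all protein-coding genes), 1 of 15 at other ends (19.8%) and 6 of 63 in bodies (8.95%). BMH-21-only regions were 1 of the 34 start regions in both BMH-21 libraries (2.82%), 1 of 2 at other ends (13.8%) and 0 of 7 in bodies (25.1%). Taking both gene ends of all 39 members together, 8 of 49 regions in both mock libraries were mock-only (16.3%, against 25.9%), 2 of 41 in both BMH-21 libraries were BMH-21-only (against 4.17%) and 39 of 59 were in all 4 (against 55.8%).

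The counts did not overlap between the groups at the other end or in the body. The mean difference, BMH-21 minus mock, was -8.5 regions at other ends and -35.5 in bodies, each with p = 0.33 in a two-sided exact permutation test of the library labels, which is the smallest p for 2 against 2. With lists of equal length the difference was -2 regions at other ends, where 2 of 4 regions in both mock libraries were mock-only (50%, against 42.9%). In bodies it was -7 regions, and 8 of 12 body regions in both mock libraries (66.7%) were mock-only, against 56.7% over all protein-coding genes. Under that setting 1 of 33 start regions was mock-only (3.03%, against 8.67%).

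**Figure D2:**
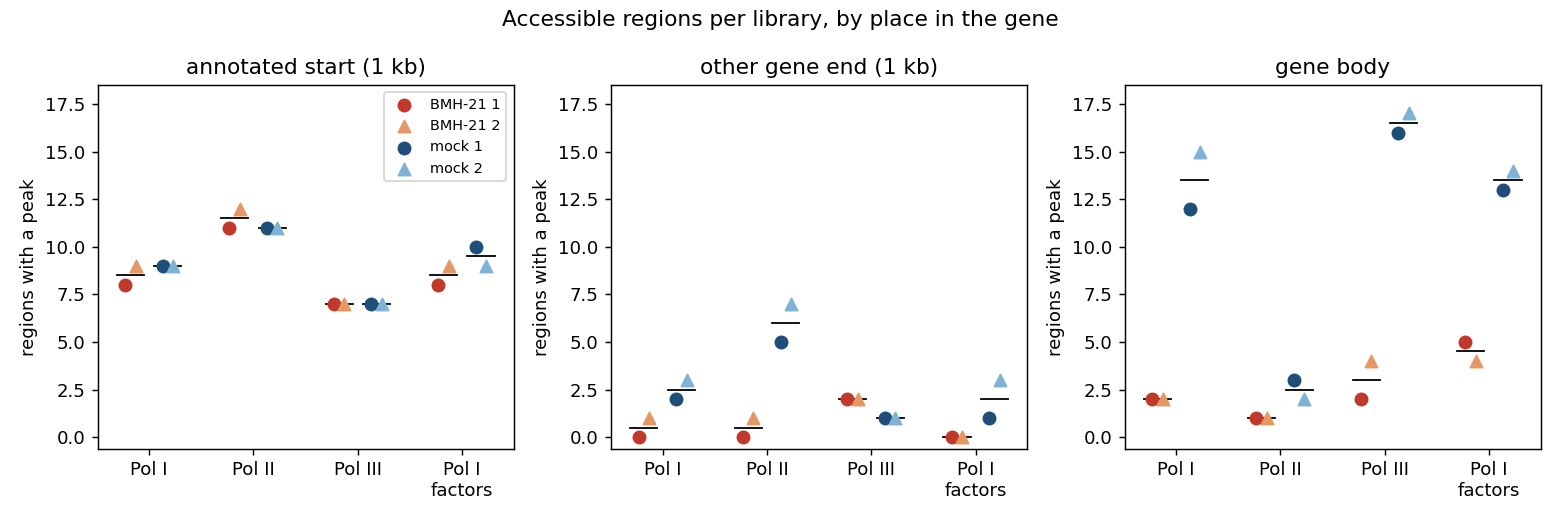
Number of regions with a peak in each library at annotated starts, at the other gene end and in gene bodies, for Pol I, Pol II and Pol III subunits and Pol I factors, with a bar at the mean of each group of 2 libraries. Starts and other ends cover the 33 members with an annotated start, and bodies cover all 39. Start counts lie between 7 and 12 in every group and library. Body counts of Pol I, Pol III and the factors are 2 to 5 with BMH-21 and 12 to 17 in mock.

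Body regions were found in 17 of the 39 members, and in 10 of those both BMH-21 libraries held fewer than both mock libraries, which was the case for 66% of protein-coding genes with a body region. In no member did both hold more (2.32% of those genes). Pol I subunits had 2 and 2 body regions in BMH-21 libraries and 12 and 15 in mock libraries, and Pol III subunits 2 and 4 in BMH-21 libraries and 16 and 17 in mock libraries. Pol I factors had 5 and 4 in BMH-21 libraries and 13 and 14 in mock libraries. Pol II subunits had 1 and 1 in BMH-21 libraries and 3 and 2 in mock libraries, and they are the shortest genes, with a median length of 6.26 kb, against 12.7 kb for Pol I subunits, 16.1 kb for Pol III subunits and 20.2 kb for the factors.

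Scaled to gene length, Pol I subunit genes had 1.18 and 1.18 body regions per 100 kb in BMH-21 libraries and 7.09 and 8.86 in mock libraries. Pol III subunit genes had 0.717 and 1.43 in BMH-21 libraries and 5.74 and 6.10 in mock libraries. Pol II subunit genes had 0.811 and 0.811 in BMH-21 libraries and 2.43 and 1.62 in mock libraries. The change, BMH-21 minus mock, differed by -5.58 regions per 100 kb for Pol I minus Pol II subunits, by -3.63 for Pol III minus Pol II and by -1.95 for Pol I minus Pol III. Each of the 3 differences had p = 0.33 in the two-sided exact permutation test and 0.33 after Benjamini-Hochberg adjustment over 6 differences, so the design cannot place any of them beyond the spread between libraries. The other 3 were the differences at gene ends, 0.0721 regions per member for Pol I minus Pol II, -0.363 for Pol I minus Pol III and 0.435 for Pol III minus Pol II, with the same p values. With lists of equal length the body differences were -0.0749 for Pol I minus Pol II (exact permutation p = 1), -0.982 for Pol III minus Pol II (p = 0.33) and 0.907 for Pol I minus Pol III, which had the other sign (p = 0.67). The body counts then changed by -1.5 regions in Pol I, -1 in Pol II and -5 in Pol III subunits, and by 0.5 in the factors.

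A few long genes carried most of these regions. The body of Polr1a held 1 and 1 regions in BMH-21 libraries and 9 and 7 in mock libraries, 4 of them mock-only. The strongest of those (chr6:71949288-71949890) had folds of 6.07 and 6.99 in mock libraries. A single Polr1a body region (chr6:71925200-71925633) was in both BMH-21 libraries, at folds of 7.35 and 7.10, and it was in 1 of the 2 mock libraries.

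Polr1b had 0 body regions in both BMH-21 libraries and 2 and 3 in mock libraries. Rrn3 had 0 and 1 in BMH-21 libraries and 5 and 5 in mock libraries, with 5 mock-only regions, the most of any member. In Ttf1 there were 0 in both BMH-21 libraries and 3 in each mock library.

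Polr3a had 0 body regions in both BMH-21 libraries and 3 in each mock library, all 3 mock-only. The strongest (chr14:24470326-24470906) had folds of 6.62 and 6.87 in mock libraries, above those at the gene end of Polr3a itself. Polr3e, a subunit held to Polr3d in a subcomplex, had 0 in both BMH-21 libraries and 5 and 4 in mock libraries. Polr3b had 1 and 2 in BMH-21 libraries and 4 and 6 in mock libraries. A region of the Polr3b body (chr10:84655033-84655787) was held by all 4 libraries, with folds of 3.47 and 4.50 in BMH-21 libraries and 7.04 and 7.34 in mock libraries.

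Polr2a had 1 body region in each BMH-21 library and 2 in each mock library. The mock-only region (chr11:69745948-69746368) had folds of 5.16 and 6.45. Of the 63 body regions 6 were held by all 4 libraries, 1 each in Polr2a, Polr3b, Polr3gl, Taf1a, Tbp and Ubtf. That of Ubtf (chr11:102308619-102311586) had folds of 5.57 and 5.95 in BMH-21 libraries and 3.22 and 3.73 in mock libraries.

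Other ends showed the same direction of counts in 3 of the 4 groups. Pol I subunits held 0 and 1 regions there in BMH-21 libraries and 2 and 3 in mock libraries, Pol II subunits 0 and 1 in BMH-21 libraries and 5 and 7 in mock libraries, and Pol I factors 0 in both BMH-21 libraries and 1 and 3 in mock libraries. Pol III subunits with an annotated start ran the other way, with 2 in each BMH-21 library and 1 in each mock library. That difference was made by Polr3gl alone. Polr3d, which has no annotated start and is not counted here, had a weaker gene-end region in mock replicate 2 only (chr14:70437772-70437971, fold 2.94). Mock-only regions there lay at Polr1a, Polr1e, Taf1a, Polr2b, Polr2j and Polr2f, with Polr2f holding 2. The strongest was at Polr2b (chr5:77349841-77350614), with folds of 6.66 and 6.55 in mock libraries, and it also lies within 1 kb of an end of Igfbp7. Those of Polr1e and Polr2j lie within 1 kb of Fbxo10 and Lrwd1. The BMH-21-only region was at Polr3gl (chr3:96576738-96577048), with folds of 5.31 and 5.01 in BMH-21 libraries.

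**Figure D3:**
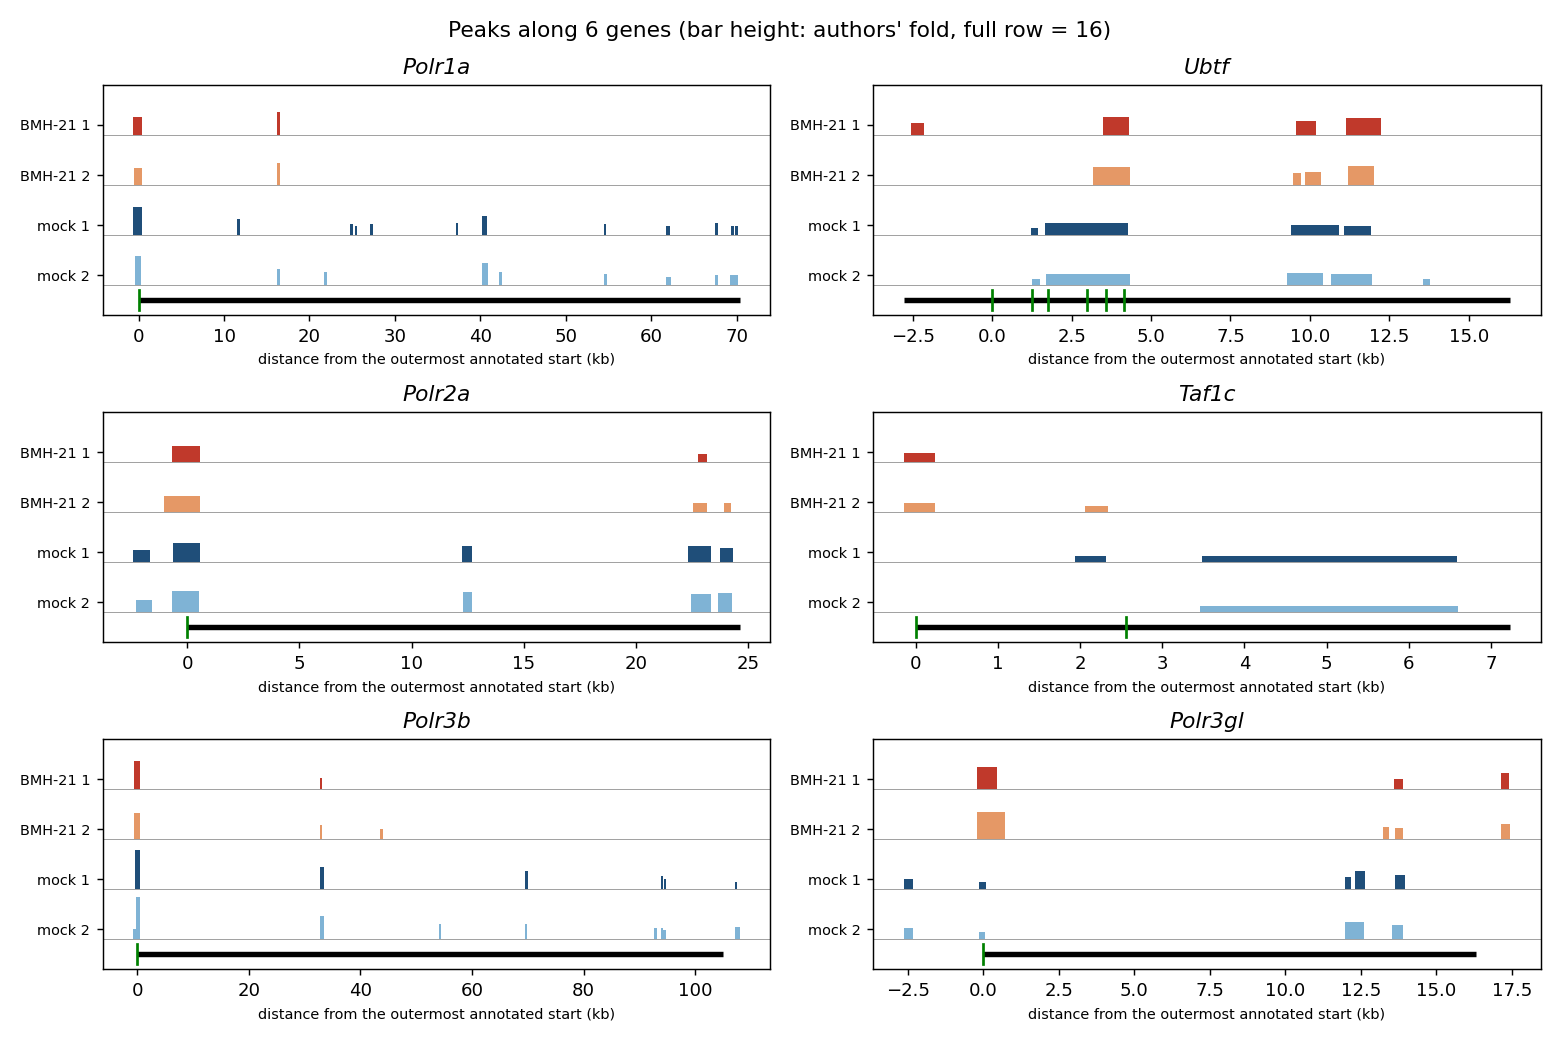
Peaks along Polr1a, Polr2a, Polr3b, Ubtf, Taf1c and Polr3gl, with distance in kb from the outermost annotated start on the horizontal axis, the gene as a black bar, annotated starts as green ticks and the authors' fold as bar height in each of the 4 libraries. The start peak is in all libraries at Polr1a, Polr2a and Polr3b while most body peaks are in mock libraries. The strongest Taf1c peaks lie at different places in BMH-21 and mock libraries, and a weaker one is shared by BMH-21 replicate 2 and mock replicate 1.

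The summit of the start peak, its point of highest pileup, lay at another position in the groups. For the 27 members with a single annotated start, the median summit lay at -10 and -9 bp in BMH-21 libraries and at 115 and 121 bp in mock libraries, where positive values are downstream of the start. The difference of the group means was -127.5 bp (two-sided exact permutation test, p = 0.33, the smallest possible), and -132.25 bp with lists of equal length. Over 8243 protein-coding genes of the same kind, members included, the medians were -4 and -3 bp in BMH-21 libraries and 134 and 134 bp in mock libraries, a difference of -137.5 bp, so the difference at the members stood near that of genes in general. Summits within 100 bp of the start were found at 14 and 16 members (51.9 and 59.3%) in BMH-21 libraries and at 6 and 7 (22.2 and 25.9%) in mock libraries. The shares of all genes were 53.3 and 52.8% in BMH-21 libraries and 26.3 and 26.2% in mock libraries.

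Both BMH-21 summits were upstream of both mock summits at 12 of the 27 members, against 54.4% of all such genes, and downstream of both at 4, against 17.3%. By enzyme, the medians were -6 and 0 bp in BMH-21 libraries and 67 and 121 bp in mock libraries for Pol I subunits, and -105 and -102.5 bp in BMH-21 libraries and 75 and 90.5 bp in mock libraries for Pol II subunits. They were -2 and -2 bp in BMH-21 libraries and 155 and 52 bp in mock libraries for Pol III subunits, and 12 and 7 bp in BMH-21 libraries and 115 and 174 bp in mock libraries for the factors.

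Single genes spread widely around these medians. The Polr1b summit lay at -5 and 5 bp in BMH-21 libraries and at 262 and 209 bp in mock libraries. At Polr1e it lay at -6 and 0 bp in BMH-21 libraries and at 167 and 158 bp in mock libraries, and at Rrn3 at 5 and 29 bp in BMH-21 libraries and at 190 and 174 bp in mock libraries. These 3 genes were chosen after their values were seen. Other Pol I subunits had summits elsewhere, at -309 and -305 bp in BMH-21 libraries and -310 and 121 bp in mock libraries for Polr1a, and at -697 and -708 bp in BMH-21 libraries and -462 and -483 bp in mock libraries for Polr1d.

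The widest upstream shift among the 27 was at Polr2i, a subunit that helps Pol II keep its fidelity, at -233 and -232 bp in BMH-21 libraries and 374 in both mock libraries. Summits moved the opposite way at Polr2b, with -22 and -36 bp in BMH-21 libraries and -593 and -565 bp in mock libraries, and at Polr3g, with -2 and -4 bp in BMH-21 libraries and -233 and -159 bp in mock libraries. Starts with an end of another gene within 1 kb were found in both directions, with Tbcb at Polr2i, Noa1 at Polr2b and Mblac2 at Polr3g. The part of such neighbours in the summit positions was not tested. Polr2l and Polr3c were the other members with both BMH-21 summits downstream of both mock summits.

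**Figure D4:**
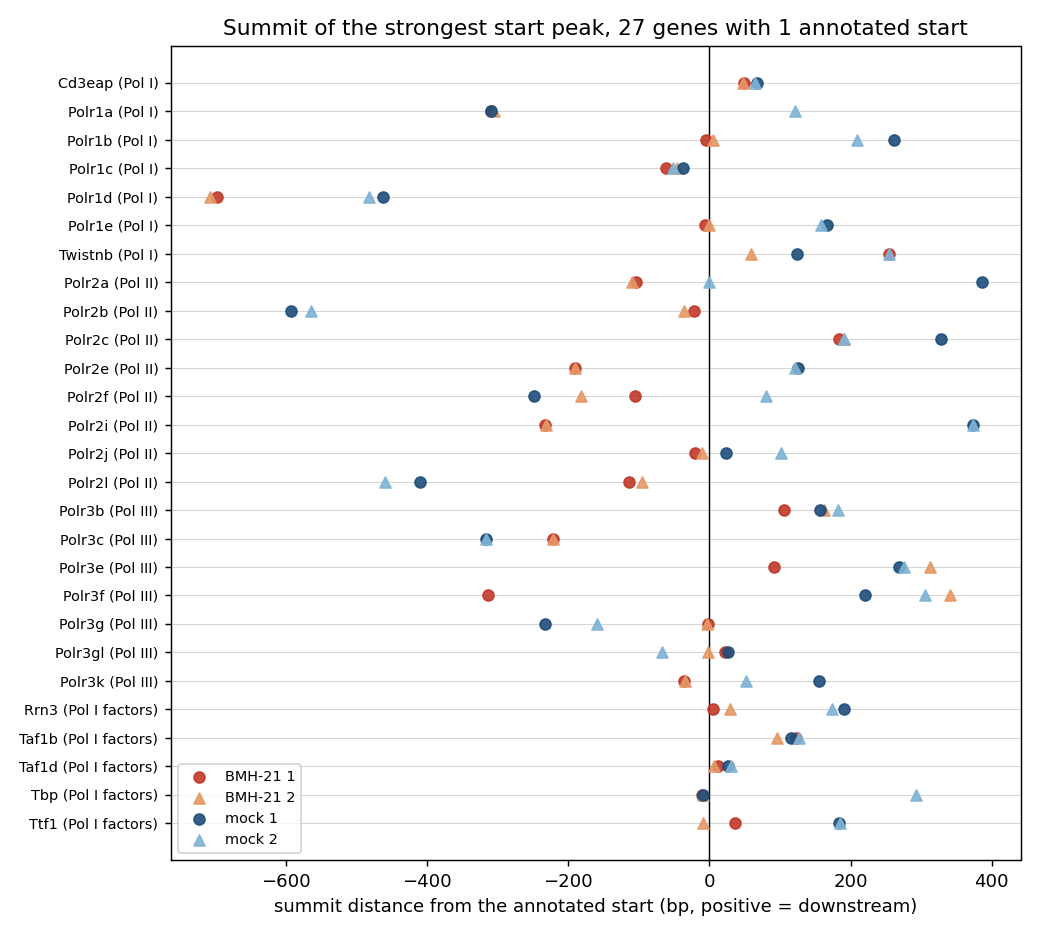
Distance in bp from the annotated start to the summit of the strongest start peak in each of the 4 libraries, for the 27 members with 1 annotated start. BMH-21 summits cluster near 0, with medians of -10 and -9 bp, and mock summits lie mostly downstream, with medians of 115 and 121 bp, while Polr2b, Polr2l, Polr3c and Polr3g run the other way.

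Genes for the factors that work with Pol II and Pol III mostly had gene-end peaks too. All 15 Pol II pausing and elongation genes, 29 of 30 general Pol II factor genes and 15 of 16 Pol III factor genes had a gene-end peak in all 4 libraries, against 57.9% of protein-coding genes. None was mock-only or BMH-21-only (11.5 and 1.35% over protein-coding genes). Taf1 and Snapc3 had no gene-end peak but had a peak at an annotated start in all 4 libraries. Gtf2h4, a subunit of TFIIH, had a gene-end peak in all 4 but was BMH-21-only at its annotated start, a class that held 1.37% of protein-coding genes with a start peak in both BMH-21 libraries, and it was chosen after its values were seen. Of 8 paralogs of general and elongation factors, not all of them particular to the germ line, 7 had a gene-end peak in all 4 libraries. Tbpl1, a TBP relative needed in spermatids, had folds of 5.86 and 5.90 in BMH-21 libraries and 8.24 and 7.89 in mock libraries. Tbpl2, known from the oocyte, had none in any library. The 3 genes of the mitochondrial transcription machinery examined, Polrmt, Tfam and Tfb2m, had one in all 4 libraries.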

How the data were processed

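The data are ATAC-seq peak lists of pachytene spermatocytes, 2 from BMH-21 libraries and 2 from mock libraries. Per the submitters' processing notes, MACS2 2.1.0, Bowtie2, fastp, deepTools and bedtools were used, and both mm39 and mm10 are named. The coordinates were read as mm10, because peaks on chromosome 1 end beyond its length in mm39 and because 61 to 70.7% of protein-coding genes had a gene-end peak, against 14.8 to 29.4% after a shift of 50 kb. The settings of the peak caller, the handling of duplicates and any correction for the offset of transposase cuts are not given in the sources used here.

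Every library has a narrowPeak list of its own, so the authors called peaks per library. The deposited fold is a ratio of summit pileup to local background. The deposited −log10 p-value and −log10 q-value describe that enrichment, with a smallest −log10 q of 2.01 to 2.09. The score that the authors deposited equals the −log10 q times 10 as a whole number, apart from rounding in 7 to 26 peaks of a list, and the deposited offset gives the summit position. None of these values is normalised between lists, read totals were not used, and an absent peak fell below the authors' threshold in that library, which does not show closed chromatin.

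Presence of a peak was compared between lists with Python 3.11.15, numpy 2.4.6 and pandas 2.3.3. Gene ends came from a RefSeq gene table of GRCm38.p6 (21887 protein-coding genes on chromosomes 1 to 19, X and Y), and starts and promoter sequences from a RefSeq promoter table of the same build, in which 33 of 39 members matched. Group means were compared by exact permutation of the 4 libraries. The sorting of genes into classes by their gene-end peaks was tested on simulated peaks, and the other steps were not. The members and gene lists were chosen with earlier results of these data known, and the use of annotated starts, of gene bodies by enzyme and of summits was added after seeing the data. Values are given for members without a peak in all 4 libraries, for the large subunits of each enzyme, for Ubtf, Rrn3, Tbp and Ttf1, and for the highest and lowest ranked member of each group by mean percentile of the fold. Other named members were chosen after their values were seen, and 1 member, kept in the counts, is not reported here by name. Promoters were taken as 280 bases, fewer than planned, so that at most 30 bases from the start are included. Alternatives were windows of 500 bp and 2.5 kb, −log10 q of at least 5, lists of equal length, the summit or 50% of the peak in the window, the replicate block, the shared subunits counted with each enzyme, and leaving out each library.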

Additional observations from a re-analysis of the deposited data

How the results depend on the processing

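All 31 subunit genes kept a gene-end peak in every library under every alternative tried except lists of equal length, where Polr2g was missing from at least 1 list and Polr3gl was BMH-21-only. Under the 500 bp window, 1 member was BMH-21-only, and regions at member ends were BMH-21-only at 1 and mock-only at 5, start regions mock-only at 1 and other-end regions BMH-21-only at 0. The change in end regions held, BMH-21 minus mock, was then 0.5 for Pol I factors, and its difference per member between Pol I and Pol II subunits was -0.00481. With a window of 2.5 kb, 19 end, 6 start and 13 other-end regions were mock-only, 5 other-end regions were in all 4 libraries, the change in Pol III end regions was -1.5 and the Pol I minus Pol II difference -0.298. With −log10 q of at least 5, 0 other-end regions were in all 4 libraries.

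With lists of equal length, 1 member was BMH-21-only at a gene end and 1 at a start, 3 end, 1 start, 2 other-end and 8 body regions were mock-only, and 2 start and 1 body regions were BMH-21-only. The change was then 1 region at ends, 2.5 at starts, 0.5 at the ends and 0.5 in the bodies of Pol I factors, and 0.907 per 100 kb for Pol I minus Pol III bodies. With the summit or 50% of the peak in the window, 1 member was BMH-21-only and 1 start region mock-only, and the Pol I minus Pol II difference at ends was -0.00481 with the summit. Counting shared subunits with each enzyme gave -1.5 for Pol III ends. The cause of these changes was not tested.

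Leaving out each library in turn gave 0 to 1 members BMH-21-only at a gene end (Ubtf), 2 to 3 end, 1 to 2 start and 0 to 4 body regions BMH-21-only, 8 to 13 end and 7 to 11 other-end regions mock-only and 1 to 2 other-end regions in all libraries. The change in start regions ran from -2.5 to 0.5, reaching 0.5 without BMH-21 replicate 1, and the Pol I minus Pol II difference at ends from -0.0673 to 0.12, reaching -0.0673 without mock replicate 2. The changes in body regions (-37.5 to -34.5) and in the median summit (-130.5 to -124.5 bp) kept their direction.

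The labels do not say whether equal replicate numbers pair libraries. Over 155908 regions, presence in replicate 1 minus replicate 2 correlated between the groups at -0.000259. Regions on which the replicates of a group agree add little to this value, so it cannot show whether libraries were paired. The fit with the replicate block gave the same differences, 0.5 members with a gene-end peak, -8.5 end regions and -35.5 body regions, and the smallest p it allows is 0.5. Read depth is unknown, so for a peak missing from a BMH-21 list lower accessibility cannot be told apart from lower depth.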
